A study of Drosophila melanogaster with 2 samples.

Results

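The 9 genes described here encode proteins that fold, insulate or silence chromatin in Drosophila, and their DNA was examined in a chromatin immunoprecipitation experiment on TFAM, the mitochondrial transcription factor A. They are ph-p, ph-d and Pc of the Polycomb group, the GAGA-binding factors Trl and psq, and the architectural proteins BEAF-32, CTCF, Cp190 and Chro, 9 of 13945 protein-coding genes on the 6 nuclear chromosome arms of the annotation. The genes were chosen from the measured peaks of this experiment together with their known roles, so the scores below that chose them are a description and carry no test. For each gene, region summits were taken within 500 bp of any annotated start site and within the gene body.

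The samples were whole embryos of mixed sex, 0 to 16 h old, from 1 transgenic line that stably expresses TFAM with GFP fused to its C terminus. The descriptions give an antibody against GFP, whereas the field for the antibody gives TFAM. There were 2 samples, biological replicates 3 and 4 of a single group, each from its own biosample, with chromatin sonicated to 200 to 800 bp. No untagged line and no control sample was analysed here, so the study offers no comparison between groups, and a whole embryo mixes many cell types and ages.

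TFAM is a high-mobility-group protein that packages mitochondrial DNA and acts at its promoters. Polycomb complexes keep developmental genes silent, with the ph proteins and Pc as subunits of Polycomb repressive complex 1. GAGA-binding factors recognise GA repeats and open chromatin, and architectural proteins such as BEAF-32, CTCF, Cp190 and Chro mark boundaries between chromatin domains and often the promoters of active genes.

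The reference sequence under the peaks the results turn on is shown first, 5′ to 3′ on the forward strand of dm6 and from RefSeq's Release 6 assembly, although all of these genes are transcribed from the reverse strand. Capitals mark GAGAG, the core letters bound by the GAGA factors, or CGATA, the core letters bound by BEAF-32, on either strand. The ph-p sequence is the whole peak that has the highest score of any peak in the 9 genes, X:2137219-2137475, in a ph-p intron, and it holds neither motif. The Trl intron sequence is the whole peak 3L:14759424-14759625, the highest in Trl, and it too holds neither motif. The Trl upstream sequence, 3L:14758150-14758350, is the 201 bp around a weaker summit and holds 2 adjoining GAGAG matches. The Trl GA repeat, 3L:14757337-14757428, is the part of another Trl peak that lies directly upstream of the innermost start and holds 10 GAGAG matches. The Cp190 sequence, 3R:15275232-15275421, runs from 10 bases inside the 5′ UTR across the start site to 100 bp beyond the summit and holds 3 CGATA matches, 2 of them the opposite strands of 1 palindrome, TATCGATA.
ph-p intron peak: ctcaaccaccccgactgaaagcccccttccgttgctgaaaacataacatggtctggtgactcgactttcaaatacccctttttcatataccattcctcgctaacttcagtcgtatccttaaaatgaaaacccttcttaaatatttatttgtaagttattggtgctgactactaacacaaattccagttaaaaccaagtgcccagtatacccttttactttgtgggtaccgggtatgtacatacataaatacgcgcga
Trl intron peak: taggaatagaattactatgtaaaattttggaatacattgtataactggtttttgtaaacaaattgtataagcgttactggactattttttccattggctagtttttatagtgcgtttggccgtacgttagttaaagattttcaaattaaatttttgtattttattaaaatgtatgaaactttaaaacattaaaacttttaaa
Trl upstream: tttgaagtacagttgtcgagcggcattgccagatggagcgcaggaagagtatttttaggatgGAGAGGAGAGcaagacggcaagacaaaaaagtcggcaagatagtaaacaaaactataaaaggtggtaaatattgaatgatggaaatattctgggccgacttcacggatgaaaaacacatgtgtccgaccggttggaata
Trl GA repeat: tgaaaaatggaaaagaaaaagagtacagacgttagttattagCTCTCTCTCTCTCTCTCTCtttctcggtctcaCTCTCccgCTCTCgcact
Cp190 start and upstream: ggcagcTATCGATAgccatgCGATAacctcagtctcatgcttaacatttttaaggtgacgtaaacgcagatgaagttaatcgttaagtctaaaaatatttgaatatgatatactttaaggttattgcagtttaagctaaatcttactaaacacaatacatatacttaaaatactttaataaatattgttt
The Trl intron peak is the richest in A and T of the 5, at 76.2%, and the ph-p peak has 59.5%.

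The authors deposited 4 lists of regions on dm6: 1 for each replicate, 1 for both replicates pooled, and a thresholded list of reproducible peaks. The thresholded list held 1290 peaks, of which 1268 were nuclear, and all 1290 were the highest-scoring regions of the pooled list with unchanged positions and scores, so the thresholded and pooled values are 1 measurement. The pooled list held 9598 regions, the replicate 3 list 13396 and the replicate 4 list 13455, and these lists include background by design: 2476, 3196 and 1717 of their regions reached a q-value at or below 0.05. Scores, the authors' own and without unit, are on a different scale in each list. The nuclear median was 46.1 in the pooled list, 18.7 in replicate 3 and 26.2 in replicate 4. No mean or SD was therefore formed over the replicates, and ranks show order within a list only. Ranks count every region of a list, the mitochondrial ones included.

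In the thresholded list, 4 of the 9 genes had a summit within 500 bp of a start site: ph-p, Trl, Cp190 and Chro. Over all protein-coding genes the same held for 746, or 5.35%. Counting summits anywhere in the gene as well added psq, giving 5 of 9, against 7.78% of all genes. The 9 genes are long, with a median length of 7.56 kb against 2.166 kb over all genes, and psq spans 59.4 kb. Since these peaks chose the genes, nothing is read from the excess over the background.

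The longer lists, which include background, covered nearly all of the genes and separated them less. A pooled summit lay at a start site of 8 of the 9, all but CTCF, against 25.3% of all genes. The replicate 3 list gave 8, all but Pc, against 29.0%, and the replicate 4 list gave 8, all but CTCF, against 28.8%. Summits in both replicate lists were found at the starts of 7 genes, against 18.8%. Requiring q-values at or below 0.05, the pooled count was 4 and the count in both replicates was 4. The shares over all genes at that limit are not given here, so nothing is read from these counts. Trl met that limit at a different start-site region in each replicate. In replicate 3 it lay 93 bp downstream of a start, and in replicate 4 it lay 304 bp upstream of another.

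**Figure D1:**
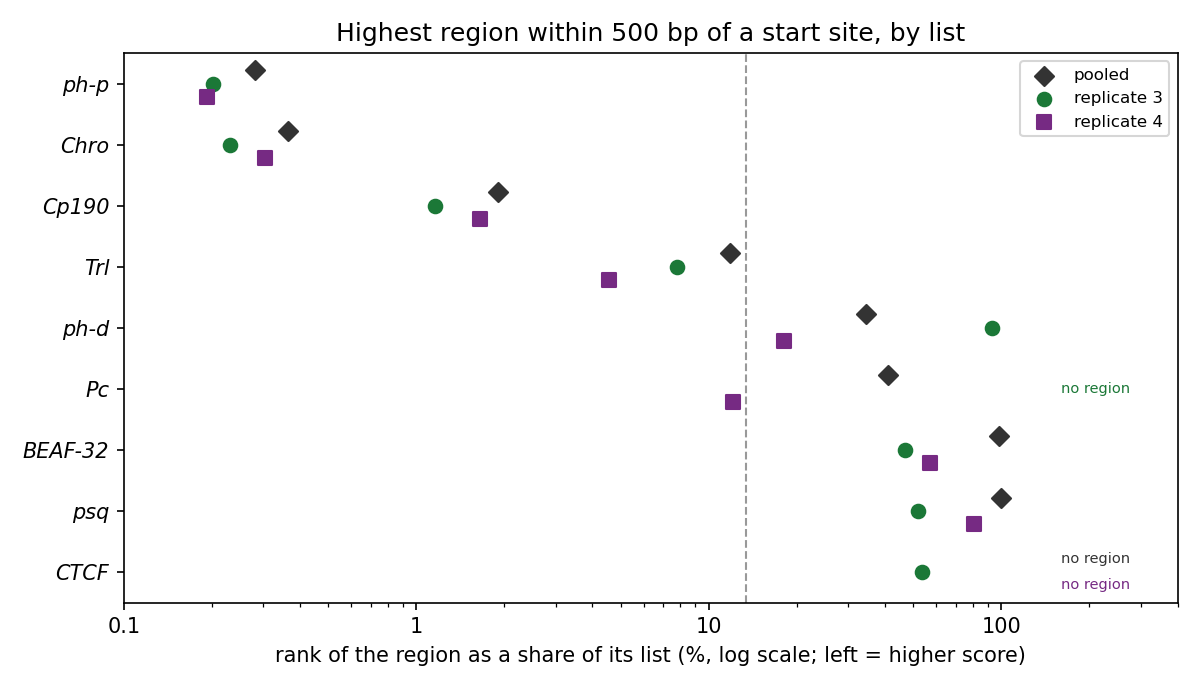
Rank of the highest region within 500 bp of a start site of each gene, as a share of the regions in its list (log scale, left is higher), in the pooled list (diamonds), replicate 3 (circles) and replicate 4 (squares). The dashed line marks the last of the 1290 thresholded peaks in the pooled list; ph-p, Chro, Cp190 and Trl lie to its left in all 3 lists, while the other 5 genes lie to its right in the pooled list or, for CTCF, have no pooled region.

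The Polycomb gene ph-p, on X:2126210-2138371 (FBgn0004861), carried the highest peak of the 9 genes. Its summit lay in an intron, 475 bp upstream of the nearest of 2 closely spaced inner start sites, at the sequence printed above. The score was 656 in the pooled list, rank 27, with 302 and rank 27 in replicate 3 and 348 and rank 26 in replicate 4. The gene thus stood at nearly the same rank in each replicate, and the replicate summits were 7 bp apart.

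A further ph-p peak lay 596 bp away at X:2137756-2138009, in the 5′ UTR and 445 bp downstream of the outermost start. It scored 410.4 in the pooled list (rank 51), 257 in replicate 3 (rank 36) and 156.7 in replicate 4 (rank 101). Both replicates thus held this peak high in their lists, replicate 4 less so. Having at least 2 thresholded summits in the gene or at its start was shared by 173 protein-coding genes, 1.24%.

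In the intron downstream of the inner starts, ph-p had a pair of lower regions that fell just short of the thresholded list. The region 2192 bp downstream of a start scored 91.0 in the pooled list (rank 1344), 32.8 in replicate 3 and 52.8 in replicate 4. The region 1267 bp downstream scored 88.3 (rank 1415) and 68.6 in replicate 3, but 21.8 in replicate 4, where its q-value was 0.885 and its summit was 154 bp from the pooled one. The region thus stood high in replicate 3 and in the background part of the replicate 4 list. The pooled scores of both regions were below the lowest nuclear thresholded score of 92.4.

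Its tandem copy ph-d, on X:2115727-2123286 (FBgn0004860), encodes a closely related subunit and lies 2923 bp downstream of ph-p in the same orientation. The region at its start, 102 bp inside the gene in the 5′ UTR, scored 55.4 in the pooled list with a q-value of 0.152 (rank 3313). In replicate 3 it scored 14.3, near the bottom of the list (rank 12472), and in replicate 4 it scored 38.1 with a q-value of 0.114. Neither replicate placed the ph-d start among regions whose q-value was at most 0.05, while both placed the pair of ph-p peaks there. A somewhat higher region lay between the genes, 777 bp upstream of the ph-d start and outside the 500 bp window. It scored 81.9 in the pooled list (rank 1618), 47.1 in replicate 3 and 32.6 in replicate 4, where its q-value was 0.287.

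Because ph-p and ph-d arose by duplication, the sequences under the ph-p peaks were aligned to ph-d with 2000 bp of upstream sequence. The 5′ UTR peak of ph-p had its best local match over 90 columns with 68 identities (75.6%). That segment of ph-d, X:2123963-2124052, is centred 721 bp upstream of the ph-d start, and the pooled region 777 bp upstream lies over it. It is shown because it is the longest of the best local matches to a ph-p peak, though not the one with the highest identity, with capitals at the bases identical to ph-p:
ph-d upstream segment: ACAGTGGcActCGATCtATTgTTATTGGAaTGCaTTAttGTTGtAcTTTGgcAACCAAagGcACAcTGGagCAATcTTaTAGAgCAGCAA
The intron peak of ph-p, the higher of the pair, matched ph-d over only 46 columns with 39 identities (84.8%), 388 bp upstream of the ph-d start, a stretch that no pooled region overlapped. How far reads from near-identical stretches of the pair could be shared between them was not tested.

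**Figure D2:**
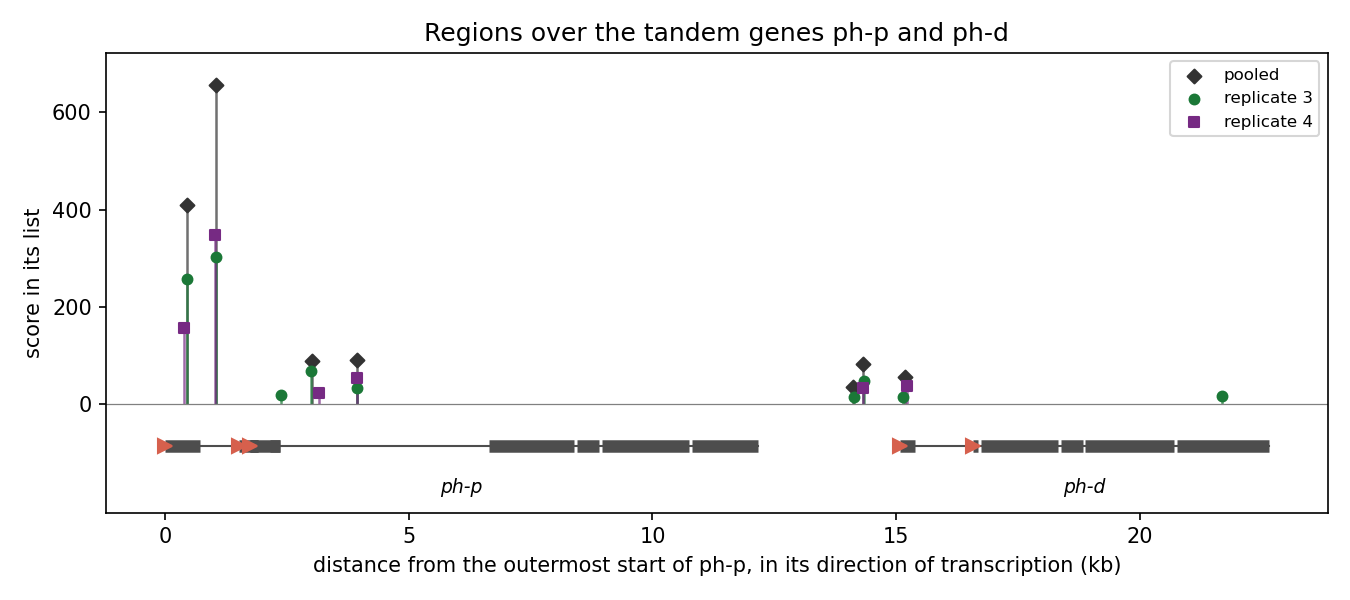
Regions over ph-p and ph-d by distance from the outermost ph-p start (kb, in the direction of transcription), with the score in each list on the y axis (pooled diamonds, replicate 3 circles, replicate 4 squares), exons as bars and start sites as triangles. The 2 high peaks, at 656 and 410.4 in the pooled list, lie in the 5′ part of ph-p, and the ph-d side holds regions of 81.9 and less.

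Pc, on 3L:21306138-21318020 (FBgn0003042), encodes the chromodomain protein that reads the histone mark laid down by Polycomb repressive complex 2. Its start-site region, 160 bp inside the gene in the coding sequence, scored 50.8 in the pooled list with a q-value of 0.259 (rank 3927). Replicate 4 placed a region there with a score of 45.0 and a q-value of 0.0438 (rank 1632). Replicate 3 had no region anywhere in the gene or at its start, so the Pc value rests on replicate 4.

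Trl, on 3L:14747929-14761049 (FBgn0013263), encodes the GAGA factor and held the most thresholded peaks of the 9 genes, with 4. In all, 18 protein-coding genes (0.13%) had at least 4 in the gene or at a start. The highest lay in the first intron, 1532 bp downstream of the outermost start, at the A+T-rich sequence printed above. It scored 464 in the pooled list (rank 43), 269 in replicate 3 (rank 32) and 193.8 in replicate 4 (rank 58). The replicate summits were 1 bp apart, and this peak stood far above the other Trl peaks in both replicates.

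The other 3 Trl peaks scored between 93.1 and 98.3, close to the lowest nuclear thresholded score of 92.4. The one 288 bp upstream of an inner start, which is also 288 bp from the start of CG42507, scored 98.3 (rank 1138), 27.3 in replicate 3 with a q-value of 0.0516 and 69.7 in replicate 4 (rank 615). It was the higher of the 3 in replicate 4 and the lower in replicate 3. The one 102 bp downstream of the innermost start, in the 5′ UTR, scored 93.1 (rank 1269), 52.0 in replicate 3 and 35.4 in replicate 4 with a q-value of 0.18.

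The last Trl peak lay in an intron 1164 bp downstream of the innermost start and scored 93.5 (rank 1261) and 46.5 in replicate 3. The nearest replicate 4 region scored 34.8 with a q-value of 0.198, while a second one, 129 bp from the pooled summit, scored 52.2. The order of these 3 peaks therefore differs between the replicates and is not resolved. Counting all pooled regions whose q-value was at most 0.05, Trl held 6 along 4418 bp, the remaining pair being 87.1 (rank 1452) and 65.9 (rank 2398).

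Chro, on 3L:22873702-22878984 (FBgn0044324), encodes the chromodomain protein Chromator found at interbands of polytene chromosomes. Its peak at 3L:22878798-22878999, in the 5′ UTR 100 bp downstream of a start, scored 523 in the pooled list (rank 35), 290 in replicate 3 (rank 31) and 237 in replicate 4 (rank 41). The summits of the replicates were 2 bp apart, and the start of the neighbouring gene Ssl1 lay 205 bp away, so the peak belongs to a stretch with starts of both genes. A second pooled region 112 bp inside the innermost start scored 54.2 with a q-value of 0.177. It had a counterpart of 46.3 in replicate 4, with a q-value of 0.0373 (rank 1544), and none in replicate 3.

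Cp190, on 3R:15270432-15275241 (FBgn0000283), encodes a zinc-finger cofactor that several insulator proteins recruit. Its peak at 3R:15275126-15275515 had the summit 80 bp upstream of the start and scored 229 (rank 182), 122.9 in replicate 3 (rank 155) and 109 in replicate 4 (rank 222). The start of CG4338 lay 201 bp from the summit. A second pooled region 282 bp upstream of the start, 1 bp from the CG4338 start, fell just short of the thresholded list at 89.9 (rank 1369). In replicate 4 it had its own region of 35.9 with a q-value of 0.166, while in replicate 3 the nearest region was the one already given for the first summit, so the 2 lists do not both separate the pair.

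**Figure D3:**
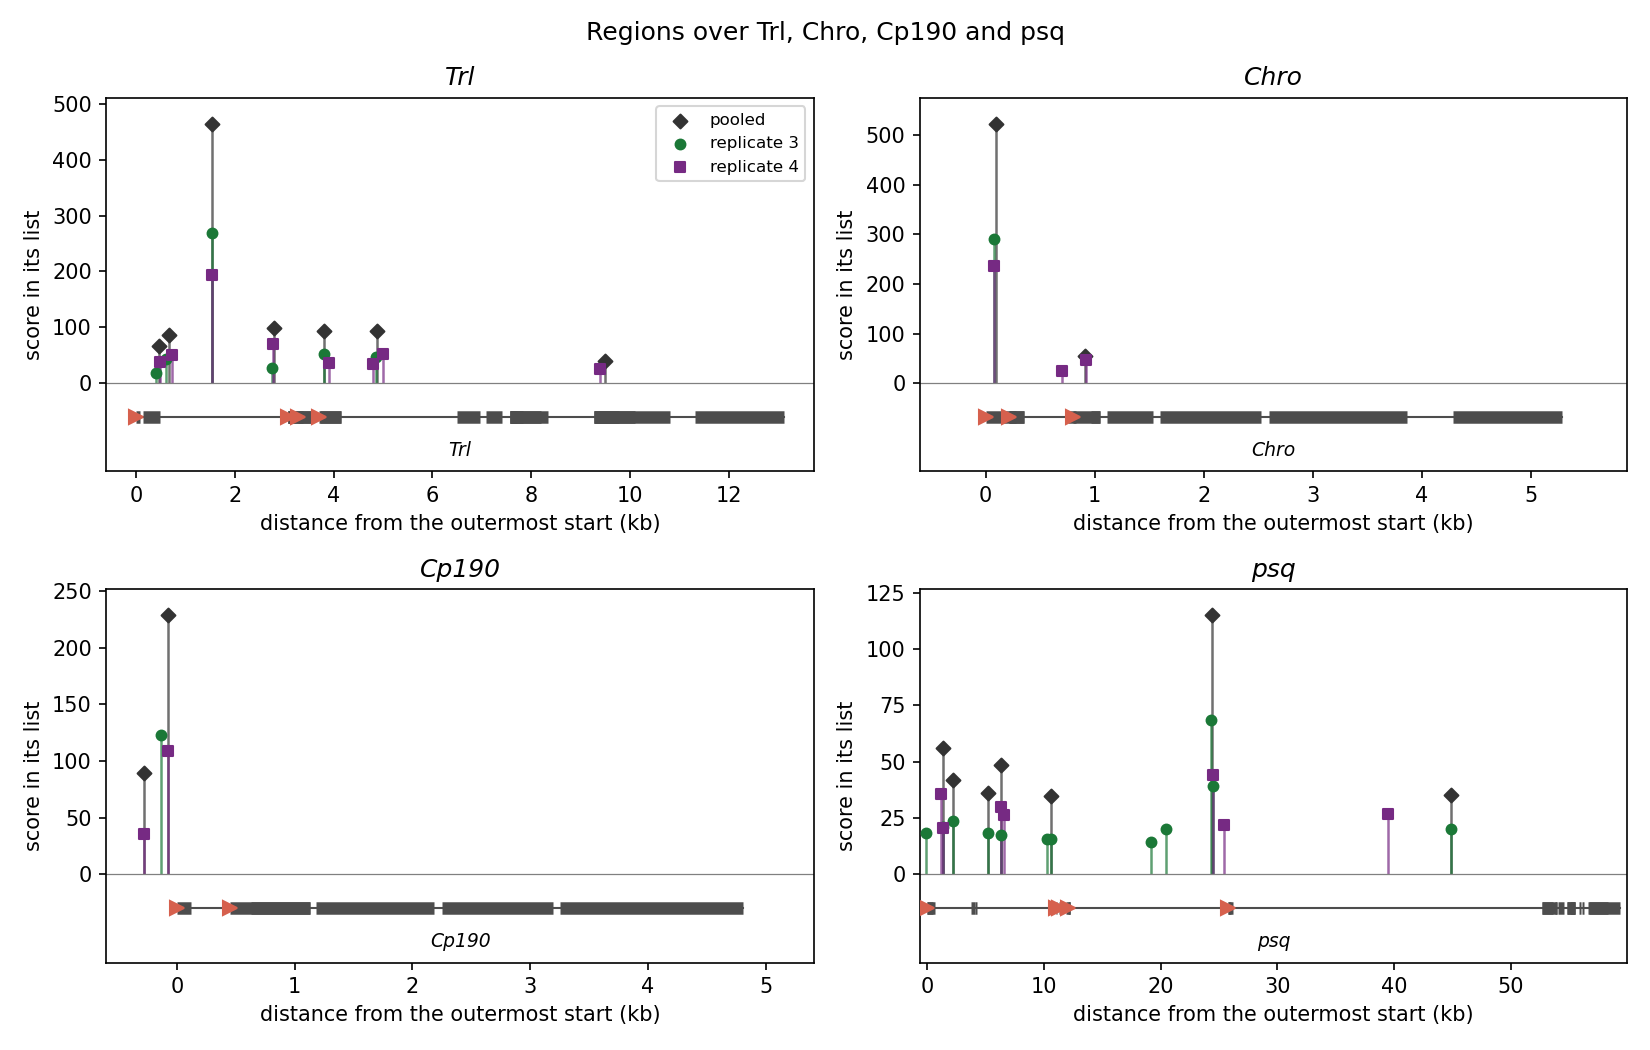
Regions over Trl, Chro, Cp190 and psq by distance from the outermost start (kb, in the direction of transcription), with the score in each list on the y axis (pooled diamonds, replicate 3 circles, replicate 4 squares), exons as bars and start sites as triangles. The y scales differ. Trl shows 1 high intron peak (464) among lower ones, Chro and Cp190 show their highest peak near the outermost start, and psq shows 1 peak of 115.1 in an intron.

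psq, on 2R:10557888-10617280 (FBgn0263102), encodes pipsqueak, a GAGA-binding factor that works with Polycomb and Trithorax proteins. Its single thresholded peak, 2R:10582124-10582513, lay in an intron 1367 bp upstream of the innermost start and scored 115.1 (rank 827). Replicate 4 had a region of 44.1 there with a q-value of 0.0498. Replicate 3 split the signal into a region of 39.1 at 86 bp and a higher one of 68.8 at 113 bp from the pooled summit. At the start sites themselves, psq scored 34.7 in the pooled list (rank 9588, q-value 0.959), 18.5 in replicate 3 (rank 6925) and 22.1 in replicate 4 (rank 10828), at different start sites in each list. The pooled value was near the bottom of its list, while the replicate 3 value was close to the median of that list. In all, 7 pooled summits lay in this long gene, and 1 had a q-value at or below 0.05.

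BEAF-32, on 2R:14770469-14772630 (FBgn0015602), encodes a boundary-element factor that binds CGATA clusters. The pooled region 167 bp upstream of its start scored 34.9 with a q-value of 0.946 (rank 9458), and the start of the antisense RNA CR42254 lay 32 bp from that summit. Replicate 3 had a region of 19.4 and replicate 4 had regions of 25.1 and 23.1, each within the background part of its list. CTCF, on 3L:7353578-7356713 (FBgn0035769), encodes the fly version of the vertebrate insulator protein and had a region in replicate 3 alone, 135 bp inside the gene, with a score of 18.2 and a q-value of 0.508 (rank 7149). These genes thus had no region below the limit of 0.05 for q-values in any list.

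By pooled start-site score the order was ph-p, Chro, Cp190 and Trl, then ph-d (55.4), Pc (50.8), BEAF-32 (34.9) and psq (34.7). The order of the first 4 was the same in both replicate lists, although the Trl value came from a different start-site region in each. The place of ph-d changed with the list. In replicate 4 Pc (45.0) was above ph-d (38.1). In replicate 3 BEAF-32 (19.4), psq (18.5) and CTCF (18.2) were all above ph-d (14.3). BEAF-32 was above psq in all 3 lists, by small margins and within the background part of each. By the value just inside and just outside the thresholded list, Trl with 93.1 and 93.5 was in, and ph-p with 91.0, Cp190 with 89.9, ph-p with 88.3 and Trl with 87.1 were out.

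All 9 thresholded summits of these genes had a counterpart within 100 bp in both replicate lists, as did 1218 of the 1268 nuclear thresholded peaks (96.1%). The median distance to the counterpart was 22 bp in replicate 3 and 25 bp in replicate 4, against 12 and 10 bp over all nuclear thresholded peaks. The replicate 4 score divided by the replicate 3 score had a median of 0.82 over the 9 peaks, with a range from 0.61 for the 5′ UTR peak of ph-p to 2.56 for the upstream Trl peak. Over all nuclear thresholded peaks the median was 1.06, with quartiles of 0.82 and 1.34. Since replicate scores enter the choice of thresholded peaks, these values describe the peaks and test nothing.

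**Figure D4:**
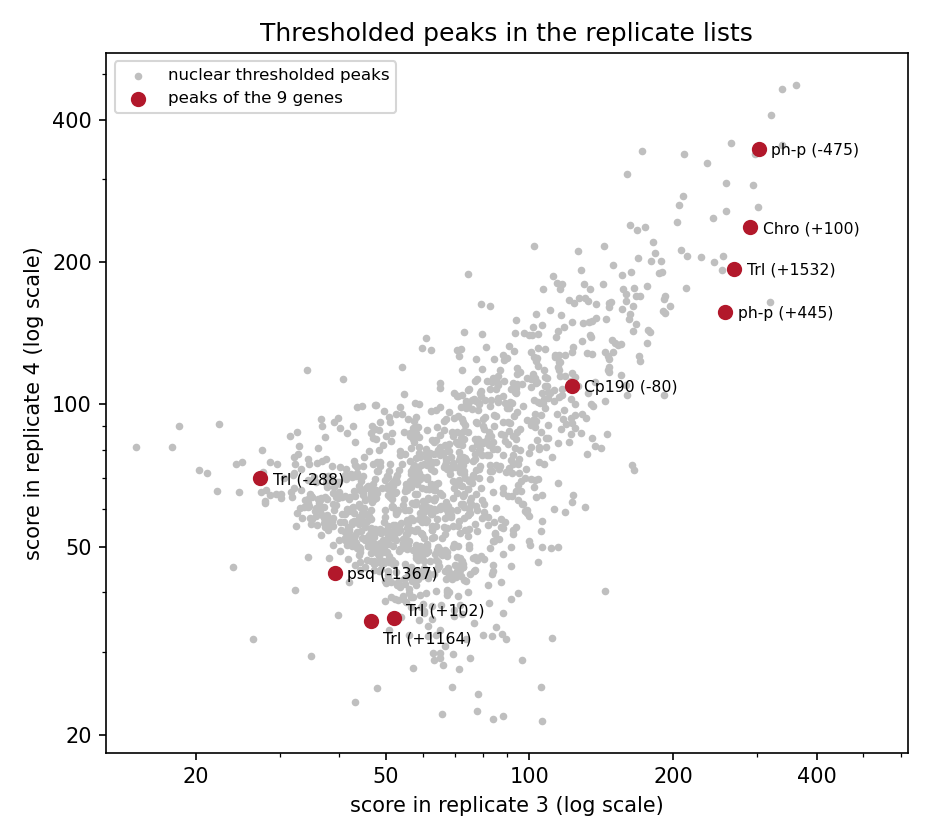
Score in replicate 3 against replicate 4 (both log scale) for the nuclear thresholded peaks with a counterpart in both lists (grey) and for the 9 peaks of ph-p, Trl, Chro, Cp190 and psq (red, with the signed distance from the nearest start in bp). Peaks of ph-p, Chro and Trl sit at the upper right, and the upstream Trl peak, at 27.3 and 69.7, lies toward replicate 4.

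The 4 highest peaks, both of ph-p, the Trl intron peak and the Chro peak, were also narrower than the usual width of 390 bp in the pooled list. Their widths ran from 202 to 257 bp. Narrow width went with high scores throughout the list: 101 of the 1268 nuclear thresholded peaks were narrower than 390 bp, with a median score of 333 against 124.3 for those of the usual width, and 87 of the 101 highest were narrow. By position, 5 of the 9 summits lay in introns, 3 in a 5′ UTR and 1 outside the gene. Of all nuclear thresholded summits, 51.8% lay in introns, 7.89% in a 5′ UTR and 39.1% outside protein-coding genes. The 9 summits were taken only in gene bodies or within 500 bp of a start, so the shares are not directly comparable.

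By replicate scores, the genes most like ph-p at their highest start-site peak were mRpS10 and Art3, which share a peak of 294.3 in replicate 3 and 290.8 in replicate 4, at a mean absolute log2 difference of 0.15, and CG14100 at 0.16. The genes most like Chro were mRpS10 and Art3 again, at 0.16, and Tina-1 at 0.19. The measure covers 2 samples, and the closeness is a matter of height alone.

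Within 100 bp of the 9 summits, on either strand, GAGAG occurred at 1, the upstream Trl peak. Among the nuclear thresholded summits 26.3% held it, and among windows of the same length on the 19252 annotated starts of protein-coding genes 24.99%. The GA repeat at the innermost Trl start is not in that count, since it lies more than 100 bp from its summit. In a window of 391 bp, the width of a peak, that Trl peak held 10 GAGAG matches, a number reached by 17 of the 1268 nuclear thresholded summits (1.34%). Most of these matches overlap along a single run of the repeat and are not separate sites, while the last pair in the printed sequence stands apart from that run. In the same 391 bp, the upstream Trl peak held 3 matches, and the highest Trl peak and the 5′ UTR peak of ph-p held 1 each. The other thresholded summits of these genes held none, while 51.6% of nuclear thresholded summits held at least 1.

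CGATA occurred within 100 bp of 3 of the 9 summits, those of Cp190, Chro and the 5′ UTR peak of ph-p, against 25.2% of nuclear thresholded summits and 37.1% of starts. TATCGATA, which contains CGATA on both strands, occurred at 1, that of Cp190, against 2.60% and 6.45%. Of the other letters searched, GGNGGC, part of the CTCF motif, occurred at 1 summit (the intron peak of ph-p, against 16.3% and 23.2%) and GCCAT, the core bound by the Polycomb recruiter PHO, at 1 (Cp190, against 26.2% and 30.8%). No summit held the promoter letters GGTCACACT, against 1.104% of nuclear thresholded summits, the Su(Hw) letters TTGCATA, against 6.94%, the Zelda letters CAGGTA, against 4.42%, or the E-box letters CACGTG, against 2.52%. These matches are letters in a window, and the absence of a match says nothing of the factor. The median share of A and T over the 9 windows was 61.7%, with a range from 51.7% to 75.1%, against 64.7% for nuclear thresholded summits and 57.7% for starts.

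Other genes of the same systems were counted from lists written with earlier results of these data known, 67 genes without the 9 above. A thresholded summit lay at a start of 3 of them (4.48%, against 5.35% of all genes): brm, the Trithorax-group ATPase, with 196.5, lola, a BTB transcription factor, with 112, and Kdm5, a histone demethylase, with 99.5. The brm peak lies 113 bp upstream of its start, near the start of Arl1 as well. The count depends on the replicate: it was 8 with the 1290 highest regions of replicate 4 alone, and 2 with those of replicate 3 alone. None of the 22 other Polycomb genes and none of the 22 other architecture genes had such a summit.

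Within genes or at starts, 13 of the 67 genes (19.4%, against 7.78% of all genes) held a thresholded summit, and 12 of these highest summits lay in introns. The 13 genes are long, with a median of 23.5 kb against 4.35 kb for the other 54. The Polycomb list gave 3 of 22: Psc, a subunit of Polycomb repressive complex 1, with 203, the histone demethylase Kdm2 with 145.8 and the zinc-finger protein jing with 121. The GAGA list gave 2 of 4, the transcription factor Adf1 with 278 and lola. Architecture gave 2 of 22, the histone kinase JIL-1, a partner of Chro, with 170.6 and mod(mdg4), an insulator protein, with 131, at a summit within 500 bp of starts of 10 annotated pre-mod(mdg4) genes. The Trithorax list gave 6 of 19: osa, a subunit of the Brahma remodelling complex, with 290.3, the histone methyltransferase trx with 242, brm, the remodeller kis with 114, near the start of lncRNA:CR44222 as well, the bromodomain protein fs(1)h with 106, and Kdm5. All 13 were below the highest peaks of ph-p, Trl and Chro, but those peaks helped choose these 3 genes, so nothing is read from this order. The median of the 13 highest scores was 145.8, against 134 over the genes with such a summit. In the pooled list with background, 30 of the 67 (44.8%, against 25.3%) had a start-site summit, with a median score of 55.5 against 53.9.

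**Figure D5:**
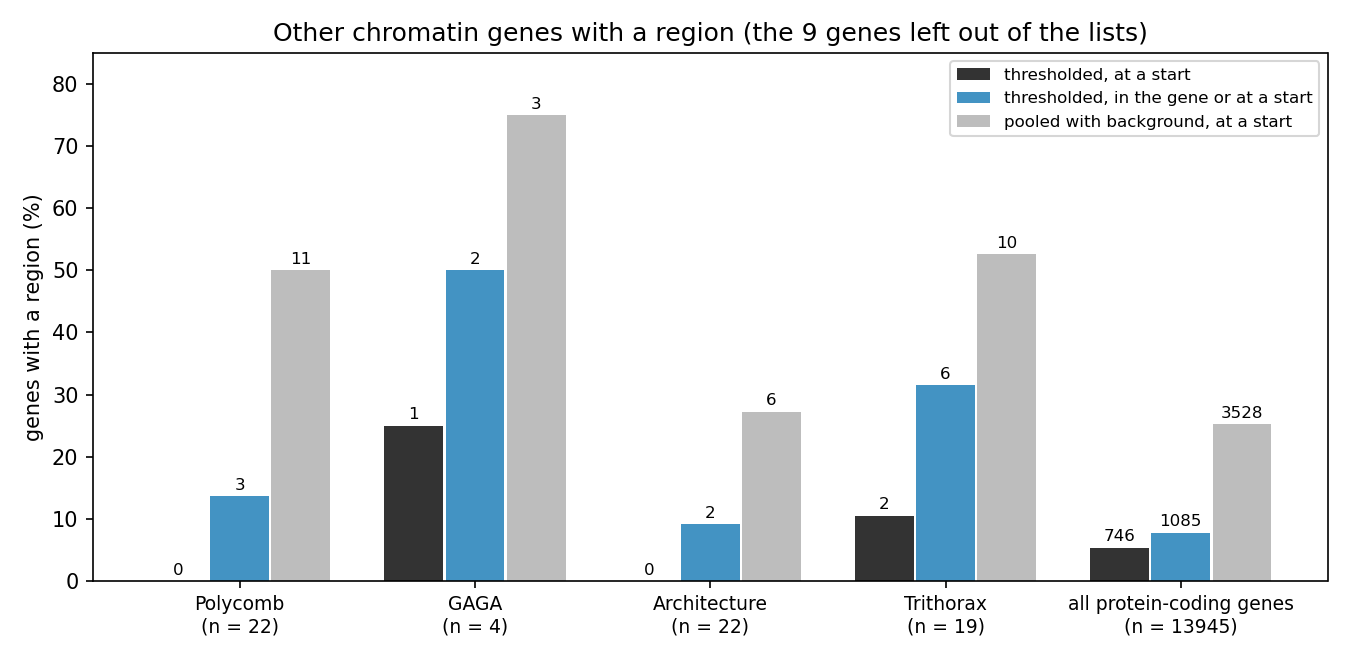
Share of genes (%) with a region in each list of other chromatin genes and in all protein-coding genes, for thresholded summits at a start (dark), thresholded summits in the gene or at a start (blue) and pooled summits at a start (grey), with the number of genes above each bar. The 9 genes are left out; thresholded start-site summits were found at 0 of 22 Polycomb and 0 of 22 architecture genes.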

How the data were processed

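Chromatin immunoprecipitation and sequencing data from 2 samples of 1 group were analysed as deposited region lists on dm6. The authors made a list for each replicate and for the pooled alignments, with the same control alignment, and a thresholded list, per the deposited file descriptions. The score column is the authors' own. The q-values are the authors' deposited −log10 q values, converted back. Aligner, peak caller and settings: not given in the sources used here. The files hold no read counts, which leaves the depth unknown; intervals were therefore not computed.

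Summits were assigned to genes with the Ensembl release 115 annotation (BDGP6.54), using protein-coding genes on the 6 nuclear arms and a window of 500 bp. The nearest region within 250 bp was taken as a counterpart. Motifs were counted within 100 bp of each summit. Sequences come from the RefSeq Release 6 genome. Local alignment used match, mismatch, gap opening and gap extension scores of 2, -3, -5 and -2. Python 3.11.15, pandas 2.3.3, numpy 2.4.6 and Biopython 1.88 were used. The members and lists were chosen with earlier results of these data known, so counts stand beside shares over all genes and no test was made. Named genes are all 9, every gene of the lists with a thresholded summit, those most like ph-p and Chro, and neighbours with a start within 500 bp. Of 78 list genes, 2 symbols could not be matched. Alternatives were other windows, any overlapping base, the nearest start, the higher part of the list, a q-value limit of 0.05, and 1 replicate at a time. Peaks on dm3 were not used.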

Additional observations from a re-analysis of the deposited data

How the results depend on the processing

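The count of 4 genes with a thresholded start-site summit was between 3 and 4 under every alternative run, and the count of 5 in the gene or at a start was between 4 and 5. Requiring q-values at or below 0.05 left 4 of the 8 genes with a pooled start-site summit and 4 of the 7 in both replicate lists. The shares over all genes at that limit are not given here. That limit removes the background part of the lists. Among the genes left in both replicate lists, Trl met it at a different start-site region in each. The count of 3 among the 67 other chromatin genes was 5 with a window of 1000 bp and 1 with the higher-scoring part of the thresholded list, above its median, and it ran from 2 to 8 with the 1290 highest regions of 1 replicate at a time; the cause was not tested. CGATA occurred at 2 summits instead of 3 within 50 bp, against 13.6% of nuclear thresholded summits and 23.6% of starts in that window. The median share of A and T was 67.3% instead of 61.7%. In that window it was also 67.3% over all nuclear thresholded summits, and 56.4% over starts. Pc rests on replicate 4. No paired analysis was possible because there is 1 group. Depth is unknown and no control sample was analysed here, so the share of each score owed to background was not tested.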
